A study of Mus musculus with 13 samples.

Results

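The tumors of the oral mucosa are described here, 6 of the 13 mouse NUT carcinoma (mNC) tumors that were sequenced, namely the 2 oral Sox2 KO tumors and the 4 oral Sox2 WT tumors, taken by the genotype and site in their labels. All 6 tumors arose in mice that carry 1 copy of the NUT carcinoma translocator (NCT) allele, with which Cre recombinase makes a fusion oncogene that contains Nutm1. The Sox2 WT tumors are labelled KRT14-Cre; NCT+/-. The Sox2 KO tumors also carry Sox2fl/fl, floxed alleles of Sox2 that Cre deletes, and their label gives the driver as KRT4Cre, where the study names KRT14-Cre for both genotypes. Because a keratin promoter drives Cre, recombination is limited to keratin-expressing epithelial cells, and stromal, muscle and immune cells of a tumor keep Sox2. Neither the labels nor the methods used here say whether tumors of a genotype came from separate mice, so that p-values measure the spread between these tumors.

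SOX2 is a transcription factor with a high mobility group box that maintains stem and progenitor cells, and in stratified epithelium of the mouth it is found in basal progenitors. NUT carcinoma is a poorly differentiated squamous cancer. Its fusion protein binds acetylated chromatin, recruits histone acetyltransferases through NUT and keeps genes such as MYC, TP63 and SOX2 expressed, which holds the cells in a proliferating state that resembles basal keratinocytes. The comparison of the 2 genotypes addresses which transcripts differ when such tumors form without Sox2.

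Total RNA depleted of ribosomal RNA was sequenced, and each tumor gave 1 library of 29394258 to 40420228 estimated counts in the Sox2 WT tumors and of 11735315 and 20432164 in Sox2 KO tumors 1 and 2. Protein-coding genes took 88.5% to 90.0% of the counts in the WT tumors, 59.5% in KO tumor 1 and 84.5% in KO tumor 2, so all values below are counts relative to the counts of protein-coding genes (CPM), scaled with TMM factors from those genes. Rn7s1 and Rn7s2, genes of the RNA in the signal recognition particle, took 2.14% to 2.49% of the counts in WT, 16.6% in KO tumor 1 and 4.67% in KO tumor 2. Neither share overlapped between the genotypes, and with 2 tumors against 4 an exact two-sided permutation test gives p = 0.0667 for each, the smallest this design allows. Their part in the differences described below was not tested. Markers of squamous tumor cells were present in all 6 tumors: Trp63, which encodes the squamous lineage factor p63, ranged from 654 to 1285 CPM, and Krt5, a basal keratin, from 1646 to 4232 CPM.

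The primers with which the study genotyped the floxed Sox2 allele are shown, since this allele is what sets the 2 groups apart.
Sox2-fl-gt-F: tggaatcaggctgccgagaatcc
Sox2-fl-gt-R: tcgttctggcaacaagtgctaaagc
The single-exon gene Sox2 (ENSMUSG00000074637) spans bases 34650405 to 34652461 of chromosome 3 (GRCm38, plus strand). It was measured at 11.1, 23.6, 21.6 and 19.3 CPM in the 4 WT tumors, and at 0 and 0.0566 CPM in the 2 KO tumors. The KO tumors held 1 count of Sox2 together and the WT tumors 2297, a ratio per protein-coding count of 448 (95% counting interval 80.3 to 17701). On the log2 scale the fitted change was -8.72 with a standard error of 0.73 (adjusted p = 0.0175, edgeR's quasi-likelihood test with Benjamini-Hochberg adjustment), so the counts go with the genotype labels in every tumor.

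Among 16352 protein-coding genes tested, 27 passed both thresholds for a differentially expressed gene (DEG), which were an adjusted p below 0.05 and a log2 fold change beyond 1 in either direction. Of these, 19 rose in Sox2 KO tumors (0.116% of the genes tested) and 8 fell (0.0489%). Both KO tumors lay outside the range of the 4 WT tumors for each of the 27. Over all genes tested, both KO tumors lay above all WT tumors for 3177 genes (19.4%) and below them for 3259 (19.9%), and an unadjusted p under 0.05 was reached by 2276 genes with higher (13.9%) and 2017 with lower values in KO (12.3%). DESeq2 with apeglm shrinkage, the method of the study, here on protein-coding genes alone, called 756 genes higher (4.62%) and 294 lower (1.80%). All 27 DEGs of the edgeR fit were among them. The study's methods name no limit to protein-coding genes, and its own fit had more genes lower than higher in oral tumors. The count of edgeR calls depended on single tumors. It was 270 without WT tumor 4 (1.28% of the genes tested higher and 0.407% lower) and between 1 and 6 when any other single WT tumor was left out. When genes of all types set the library sizes and factors, 492 genes were called higher (3.01%) and 565 lower (3.46%), 46.5% of the calls being higher against 70.4% in the fit of protein-coding genes, and the median log2 fold change of the protein-coding genes moved from -0.02 to -0.21.

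**Figure D1:**
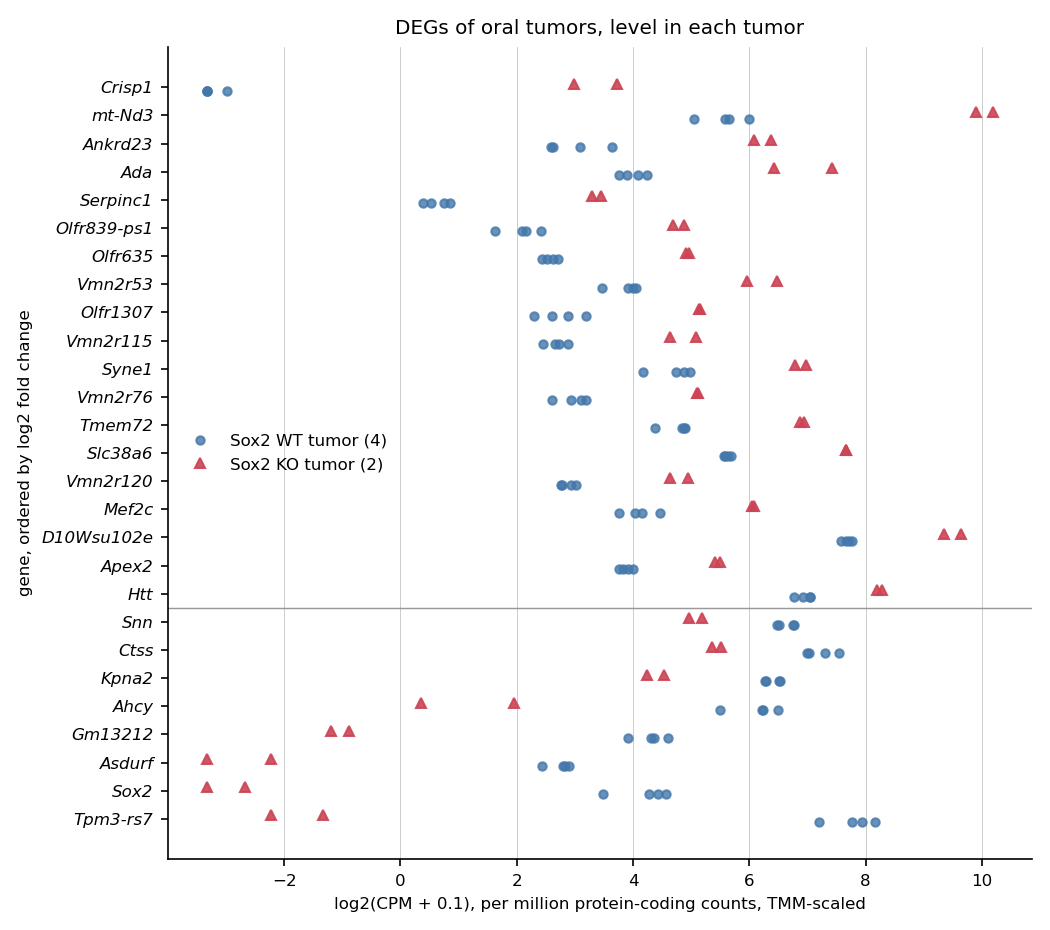
Level of the 27 DEGs in each oral tumor, as log2 of CPM plus 0.1 on the horizontal axis, with circles for the 4 Sox2 WT tumors and triangles for the 2 Sox2 KO tumors. Genes are ordered by log2 fold change, the 8 that fell lie under the grey line, and the circles and triangles of a gene do not overlap.

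Enzymes and transporters of small metabolites were among the genes that rose. Ada encodes adenosine deaminase, which turns adenosine into inosine in purine salvage. Its level was 13.5, 18.8, 16.9 and 14.8 CPM in the WT tumors and 85.8 and 172 CPM in the KO tumors, so that the log2 fold change was 3.01 (adjusted p = 0.0238, standard error 0.29). The lower KO tumor was still several times above the highest WT tumor. Slc38a6, a member of the sodium-coupled amino acid transporter family, had 49.6, 47.4, 47.8 and 51.1 CPM in WT and 203 and 202 CPM in KO tumors (log2 fold change 2.05, standard error 0.13, adjusted p = 0.00593). The tumors of each genotype were nearly level for this gene, and its 31-base sequences were shared with other genes for 31.3%.

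Secreted proteins followed. Crisp1, which encodes a cysteine-rich secretory protein and stood in the list of salivary gland genes, had 1 count over the 4 WT tumors and 284 over the 2 KO tumors. In CPM it was 0.0272 in WT tumor 1, 0 in the other WT tumors, and 7.82 and 13.1 in the KO tumors, with a ratio of the pooled counts of 1456 (95% counting interval 259 to 57719) and an adjusted p = 0.0175. Serpinc1, the gene of antithrombin, an inhibitor of clotting proteases, had 1.22 to 1.71 CPM in WT and 9.73 and 10.8 CPM in KO tumors (log2 fold change 2.81, adjusted p = 0.0481). Both genes were thus low or near 0 in the WT tumors and measurable in each KO tumor.

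Grouped here after their values were seen, 3 further genes that rose are known from muscle, and none of them stood in the muscle lists described further down. Mef2c, a transcription factor of muscle and neural development, measured 13.5, 22.1, 16.3 and 17.7 CPM in WT and 68.0 and 65.7 CPM in KO tumors (log2 fold change 1.94, standard error 0.22, adjusted p = 0.0431). Ankrd23, an ankyrin repeat protein of the sarcomere, measured 5.92 to 12.3 CPM in WT and 67.5 and 83.0 CPM in KO tumors (log2 fold change 3.20, adjusted p = 0.0298). Syne1, whose nesprin 1 links the nucleus to the cytoskeleton and positions the nuclei of muscle fibers, measured 17.9 to 31.5 CPM in WT and 127 and 111 CPM in KO tumors (log2 fold change 2.17, adjusted p = 0.0392).

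Of the other genes that rose, Apex2, an endonuclease of DNA repair, had 13.5 to 15.9 CPM in WT and 42.5 and 45.0 CPM in KO tumors (log2 fold change 1.58, adjusted p = 0.0422). Htt, the gene of the scaffold protein huntingtin, had 109 to 132 CPM in WT and 292 and 311 CPM in KO tumors (log2 fold change 1.29, adjusted p = 0.0442), the smallest change among the genes that rose. Tmem72 and D10Wsu102e had log2 fold changes of 2.15 and 1.82 (adjusted p = 0.0195 for each). Removing a trend with transcript length, described below, left D10Wsu102e at -0.63, and its longest annotated transcript has 123179 bases.

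Among the genes that rose, 7 encode chemosensory receptors, the olfactory receptors Olfr635, Olfr839-ps1 and Olfr1307 and the vomeronasal receptors Vmn2r53, Vmn2r76, Vmn2r115 and Vmn2r120, which sensory neurons of the nose use to detect odors and pheromones. Their levels were low, from 3.00 to 16.4 CPM in the WT tumors and from 24.8 to 89.3 CPM in the KO tumors, and their log2 fold changes ran from 1.94 to 2.70 (adjusted p = 0.0195 to 0.0442). None of the 7 stayed called once the length trend described below was removed. They shared 4.21% to 25.2% of their 31-base sequences with other genes. Over all 468 receptor genes of the Olfr, Vmn, Taar and Tas2r families that were tested, a group chosen after the values were seen, 456 had a positive log2 fold change, and the median was 1.77 against -0.02 over all genes tested. An unadjusted p under 0.05 with higher values in KO was reached by 302 of the 468, against 13.9% of all genes tested. The table holds 1516 such genes in all, and the rest did not pass the count filter. The 2 KO tumors alone can meet this filter, so receptors low in WT could be tested because they were high in KO, and these were not counted. Of the 1516, 705 to 805 had no count in a WT tumor, 833 in KO tumor 1 and 726 in KO tumor 2. The summed level of all 1516 was 444 to 654 CPM in WT tumors and 1658 and 2133 CPM in KO tumors. Of 13 tested genes of the nasal epithelium other than receptors, 10 had negative log2 fold changes, and the median was -1.18, which became -6.55 without KO tumor 1 and -0.14 with DESeq2 and apeglm. Omp, a marker of mature olfactory neurons, had 0.222 to 1.65 CPM in WT and 1.47 and 1.13 CPM in KO tumors, so that the genotypes overlapped. Bpifb3 had 12.5 CPM in KO tumor 1 and 0 in KO tumor 2. The odorant-binding protein genes Obp1a, Obp1b and Obp2a were at 0 in both KO tumors, against 0.0815 to 4.83 CPM in the WT tumors.

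Among the genes that fell, Ctss is a gene of immune cells. It encodes cathepsin S, a lysosomal protease with which antigen-presenting cells process the invariant chain of MHC class II, and measured 131, 159, 128 and 186 CPM in WT and 40.8 and 45.4 CPM in KO tumors (log2 fold change -1.80, standard error 0.22, adjusted p = 0.0481). Snn, the gene of stannin, a small membrane protein, measured 88.6 to 109 CPM in WT and 36.4 and 31.3 CPM in KO tumors (log2 fold change -1.55, adjusted p = 0.0442). Neither gene shared a 31-base sequence with another gene.

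The other genes that fell, apart from Sox2, share most of their sequence with a second gene, as do mt-Nd3 and Ankrd23 among the genes that rose, so that the authors' estimated counts may split reads between the copies. Of the 27 DEGs, 7 shared at least 50% of their 31-base sequences, the length that a pseudoaligner of this kind uses by default, and 10 shared under 5%. Coding windows from 3 of these pairs show how little can set the copies apart. Each window has 29 bases, is written 5′ to 3′ on the strand of the gene, and has the single base that differs in capitals.
Tpm3-rs7, chr14:113314733-113314761, plus strand, exon 1: caagctgatgatgcAgaggaaagggccga
Tpm3, chr3:90079789-90079817, plus strand, exon 1: caagctgatgatgcGgaggaaagggccga
Ahcy, chr2:155064884-155064912, minus strand, exon 5: tctgaggagaccacGactggggtccacaa
Gm4737, chr16:46154525-46154553, minus strand, exon 1: tctgaggagaccacAactggggtccacaa
mt-Nd3, chrM:9459-9487, plus strand, exon 1: atTaacctgtacactgttatcttcattaa
Gm28438, chr1:24613091-24613119, minus strand, exon 1: atCaacctgtacactgttatcttcattaa
Coordinates are on GRCm38, and the bases come from the GENCODE M21 transcripts. Counted from the 5′ end of the window, the substitutions are A15G from Tpm3-rs7 to Tpm3, G15A from Ahcy to Gm4737 and T3C from mt-Nd3 to the nuclear pseudogene Gm28438.

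For the pair of tropomyosin genes, Tpm3-rs7 measured 147, 218, 245 and 286 CPM in the WT tumors and 0.295 and 0.113 CPM in the KO tumors (log2 fold change -10.33, adjusted p = 0.00491). Tpm3 itself measured 291, 65.8, 82.2 and 79.1 CPM in WT and 232 and 293 CPM in KO tumors, so that Tpm3 was high where Tpm3-rs7 was low. Their sum was 353 ± 65.1 CPM (SD, n = 4) in WT and 263 ± 43.1 CPM (SD, n = 2) in KO tumors, and the genotypes overlapped in it. An exact two-sided permutation test gave p = 0.20 for the sum, and in this design none can go below 0.0667.

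Ahcy, the gene of S-adenosylhomocysteine hydrolase, which clears the product of methylation reactions, had 45.3 to 90.4 CPM in WT and 1.18 and 3.79 CPM in KO tumors (log2 fold change -4.75, adjusted p = 0.0438). Together with its near copy Gm4737 it had 203 ± 54.7 CPM (SD, n = 4) in WT and 114 ± 51.3 CPM (SD, n = 2) in KO tumors (exact permutation p = 0.267). The 2 genotypes overlapped in this sum, unlike in Ahcy alone.

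Kpna2, the gene of importin alpha 1, which carries proteins into the nucleus, gave 77.5 to 92.3 CPM in WT and 18.7 and 23.1 CPM in KO tumors (log2 fold change -2.02, adjusted p = 0.0241), and its copy Gm10184 gave 69.1 to 89.1 CPM in WT and 110 CPM in each KO tumor. The sum was 163 ± 18.0 CPM (SD, n = 4) in WT and 131 ± 3.32 CPM (SD, n = 2) in KO tumors, with an exact permutation p = 0.133. Both KO tumors, at 128 and 133 CPM, lay below the lowest WT tumor at 147 CPM. Asdurf, a short open reading frame within the Asnsd1 locus, all of whose 31-base sequences lie in Asnsd1 too, had 5.29 to 7.32 CPM in WT and 0 and 0.113 CPM in KO tumors (adjusted p = 0.0433). The sum with Asnsd1 was 67.1 ± 17.2 CPM (SD, n = 4) in WT and 43.8 ± 7.15 CPM (SD, n = 2) in KO tumors (exact permutation p = 0.20), and the KO tumors, at 48.8 and 38.7 CPM, lay just below the lowest WT tumor at 50.3 CPM.

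In the remaining 3 pairs the KO tumors also lay outside the range of the WT tumors in the sum. The zinc finger gene Gm13212 had 14.9 to 24.2 CPM in WT and 0.442 and 0.339 CPM in KO tumors (log2 fold change -5.70, adjusted p = 0.00924), and its sum with Zfp984 was 29.1 ± 5.15 CPM (SD, n = 4) in WT and 10.4 ± 4.90 CPM (SD, n = 2) in KO tumors. The log2 ratio of the means was -1.48 for this sum, against -5.66 for Gm13212 alone. mt-Nd3, a subunit of respiratory complex I encoded in mitochondrial DNA, had 32.9 to 63.7 CPM in WT and 1167 and 956 CPM in KO tumors (log2 fold change 4.45, adjusted p = 0.00593). Its pseudogene Gm28438, with 98.1% of the 31-base sequences in common, had 507 to 665 CPM in WT, 1624 CPM in KO tumor 1 and 43.7 CPM in KO tumor 2, so that the sum was 540 to 729 CPM in WT and 2791 and 1000 CPM in the KO tumors. The log2 ratio of the means was 1.57 for this sum, against 4.45 for mt-Nd3 alone. For Ankrd23, the sum with Gm42417 hardly departed from the value of Ankrd23 alone, since Gm42417 stayed under 1 CPM in every tumor. Each of these 3 sums has an exact permutation p = 0.0667, the smallest possible. Each sum holds the gene that was chosen in these same 6 tumors, so this p is no separate support for a difference. Gm13212 shares 31-base sequences with 59 genes, of which only Zfp984 was added.

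**Figure D2:**
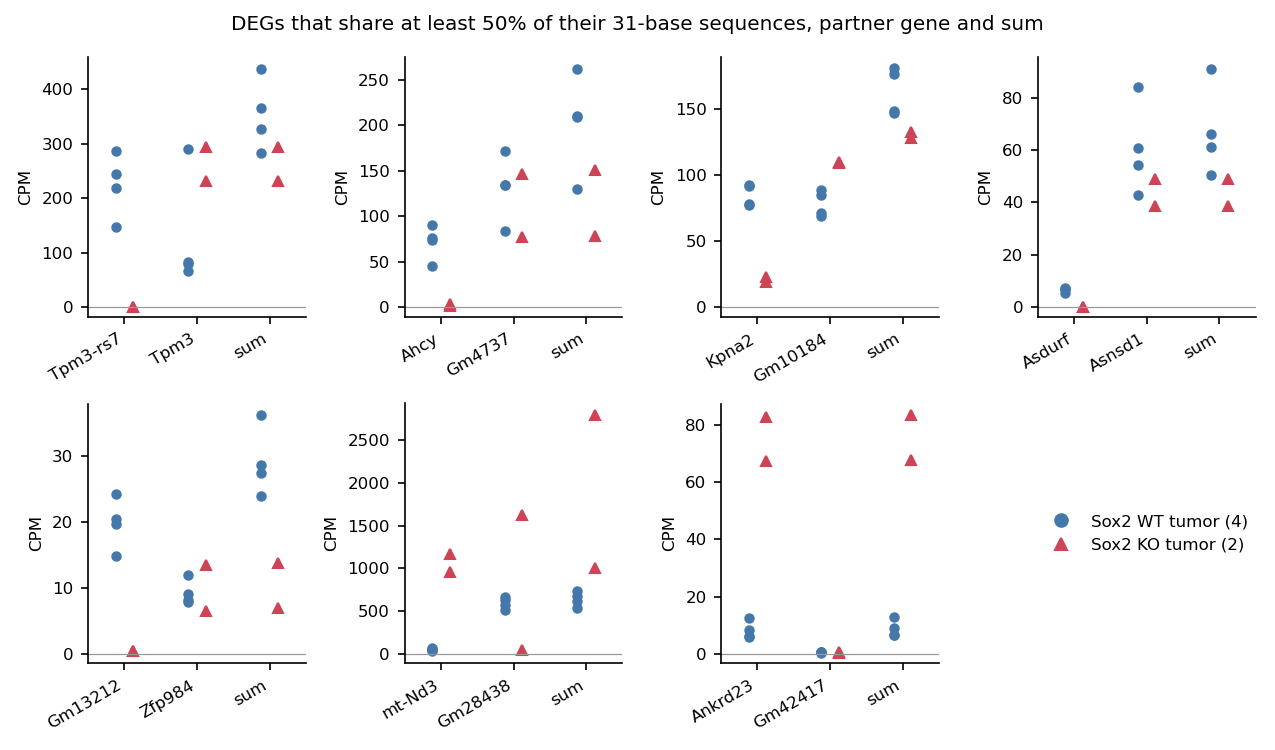
CPM in each oral tumor of the 7 DEGs that share at least 50% of their 31-base sequences, of the partner gene and of the sum of both, with circles for the 4 Sox2 WT and triangles for the 2 Sox2 KO tumors. The log2 ratio of the genotype means is smaller in size in the sum than in the gene alone for all 7, and least so for Ankrd23 (3.12 against 3.20). The sums of KO and WT tumors overlap for Tpm3-rs7 and Ahcy, and do not overlap for Kpna2, Asdurf, mt-Nd3, Gm13212 and Ankrd23.

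Just inside the threshold stood Olfr1307, Ctss and Serpinc1 with adjusted p = 0.0442, 0.0481 and 0.0481, and just outside it Hist1h2bq, Olfr63 and Syt10 with 0.0531, 0.0544 and 0.0544. The log2 fold changes of the latter were 2.28, 2.53 and 4.97. Hist1h2bq shares 98.3% of its 31-base sequences with Hist1h2br, which had -3.58, so that these 2 histone genes lay in opposite directions.

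Nutm1, Myc and Trp63 did not pass the test. Nutm1, which is otherwise transcribed in testis and here reports the fusion, had 57.4 to 75.0 CPM in WT and 60.9 and 93.3 CPM in KO tumors (log2 fold change 0.23, 95% interval from the fit -0.29 to 0.74). For Myc, the proliferation factor downstream of the fusion, the values were 219, 200, 143 and 233 CPM in WT and 140 and 177 CPM in KO tumors (log2 fold change -0.33, 95% interval -0.88 to 0.23). Trp63 had a log2 fold change of -0.18 (95% interval -0.89 to 0.52). Genotypes overlapped for each of these 3 genes, and the intervals leave room for changes of moderate size in either direction. Of the 12 genes in the list of drivers and BET cofactors, none was called and the median log2 fold change was -0.01. Zfp532 and Nsd3, which form fusions with NUTM1 in other NUT carcinomas, had log2 fold changes of 0.63 and 0.60 at unadjusted p = 0.0036 and 0.00591, and Brd3, a gene of the BET family, -0.87 at unadjusted p = 0.0041. None of the 3 passed after adjustment.

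Other members of the Sox family did not pass the edgeR test either, and DESeq2 called Sox4 lower. Of 19 listed genes 16 were tested, 1 was called, Sox2 itself, and the median log2 fold change was -0.18. Sox4, a progenitor factor, measured 191 to 389 CPM in WT and 128 and 78.1 CPM in KO tumors (log2 fold change -1.34, unadjusted p = 0.0073), and Sox12, of the same SoxC group, had -0.88 (unadjusted p = 0.0412). Sox21, a SOX2-related factor of the SoxB group, had -1.54 with 1.57 to 20.9 CPM in WT and 1.33 and 3.68 CPM in KO tumors, so that the genotypes overlapped. Sox3 had no count in any of the 6 tumors. Among 9 tested factors that act with SOX2 on chromatin, such as Klf4, Klf5 and the TEAD factors, none was called, and Tead2 had the smallest p of those with lower values (log2 fold change -0.99, unadjusted p = 0.0022).

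Keratinocyte genes gave no call in either direction in the edgeR fit that gave the 27 DEGs. DESeq2 called Krt15 lower (1.80% of all genes) and Dst, Krt4 and Krt13 higher (4.62%). Without WT tumor 4 edgeR called 1 of 20 basal and 2 of 43 differentiation genes higher, against 1.28% of all genes. In the list of basal keratinocyte genes, 10 of 20 had positive and 10 negative log2 fold changes, with a median of 0.08. Krt5 measured 2615 to 4232 CPM in WT and 1893 and 1646 CPM in KO tumors (log2 fold change -0.85, adjusted p = 0.124), while its partner Krt14 measured 840 to 2809 CPM in WT and 2854 and 1199 CPM in KO tumors (log2 fold change 0.26, adjusted p = 0.803). Krt15, a keratin of basal progenitors, had 89.3 to 462 CPM in WT and 45.6 and 20.5 CPM in KO tumors (log2 fold change -2.94, adjusted p = 0.0871). Dst, a linker of keratin to hemidesmosomes, had 255 to 518 CPM in WT and 784 and 856 CPM in KO tumors (log2 fold change 1.19, adjusted p = 0.0788), and 0.09 once the length trend described below was removed. Neither Krt15 nor Dst passed, although the genotypes did not overlap.

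Of 43 genes of keratinocyte differentiation, 27 had positive log2 fold changes and the median was 0.39. Krt4 and Krt13, the keratin pair of the non-cornified lining of the mouth, were higher in both KO tumors than in any WT tumor. Krt4 had 227, 596, 241 and 426 CPM in WT and 2109 and 1463 CPM in KO tumors (log2 fold change 2.26, adjusted p = 0.0644). Krt13 had 250 to 806 CPM in WT and 1471 and 1361 CPM in KO tumors (log2 fold change 1.71, unadjusted p = 0.00749). In contrast, genes of cornified skin varied within each genotype: Krt10 measured 3172 CPM in KO tumor 1 and 144 CPM in KO tumor 2, with 83.4 to 1151 CPM in WT, and Krt1 1791 and 87.7 CPM, with 34.1 to 2145 CPM in WT. The summed level of the list was 30399 CPM in KO tumor 1, 10635 CPM in KO tumor 2 and 4618 to 25854 CPM in the WT tumors, so that the genotypes overlapped. Without KO tumor 1 the median log2 fold change of the list was -0.68, below 0.

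Transcripts of skeletal muscle, which lies under the oral mucosa and in the tongue, were abundant in both Sox2 KO tumors. Of 27 tested genes of slow fibers or of all fibers, 26 had positive log2 fold changes with a median of 3.75, and of 15 genes of fast fibers all 15 had, with a median of 3.85. Their summed levels were 24.5 to 754 CPM in WT and 8300 and 4923 CPM in KO tumors for the former, and 33.7 to 260 CPM in WT and 1528 and 472 CPM in KO tumors for the latter. WT tumor 4 had the highest muscle level of the WT tumors in both lists, and the other WT tumors stayed at 24.5 to 36.2 CPM and at 33.7 to 72.9 CPM. None of these genes was called in the edgeR fit that gave the 27 DEGs, and 13 of 27 and 9 of 15 had an unadjusted p under 0.05 with higher values in KO, against 13.9% of all genes tested. Without WT tumor 4 the medians were 7.01 and 8.06, and 15 and 12 genes of the 2 lists were called higher, against 1.28% of all genes. With genes of all types in the fit 2 of each list were called higher (3.01% of all genes), and DESeq2 called 6 of each (4.62%), with shrunken medians of 0.18 and 0.34. In 1 fit of all 13 tumors edgeR called 10 and 8 higher (1055 of 17462 genes), and with tumor number as a block 8 and 4 (19 of 16352 genes). Numbers 3 and 4 occur only in WT, so the blocked genotype effect rests on tumors 1 and 2 and leaves out WT tumor 4. Other count filters and thinned counts gave at most 1 call in either list. Ttn, the gene of the giant sarcomere protein titin, chosen here after its values were seen, measured 1.33 to 404 CPM in WT and 6134 and 3678 CPM in KO tumors. Ryr1, the calcium release channel of the sarcoplasmic reticulum, measured 5.97, 7.99, 12.3 and 30.97 CPM in WT and 133 and 173 CPM in KO tumors (log2 fold change 3.42, adjusted p = 0.0644). Pvalb, a calcium buffer of fast fibers, had 0 CPM in 3 WT tumors, 0.0852 CPM in WT tumor 4, and 8.41 and 6.17 CPM in the KO tumors (adjusted p = 0.0552).

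The muscle genes differed between the 2 KO tumors in kind as well. Myh1 and Myh4, fast myosins of adult fibers, had 674 and 110 CPM in KO tumor 1 and 118 and 5.66 CPM in KO tumor 2. Myh8, the perinatal myosin, had 1.47 CPM in KO tumor 1 and 71.8 CPM in KO tumor 2, with 0.037 to 4.09 CPM in WT. Of 15 listed genes of muscle progenitors and developing fibers, 10 passed the count filter, which the 2 KO tumors alone can meet. All 10 had positive log2 fold changes, with a median of 2.54, but genes low in WT could be tested because they were high in KO. The summed level of the 15 was 8.58 to 18.6 CPM in WT and 36.4 and 106 CPM in KO tumors. Chrna1, a subunit of the acetylcholine receptor, had the smallest p (0.722 to 1.505 CPM in WT, 3.10 and 9.79 CPM in KO tumors, adjusted p = 0.0702). In bulk tumors, more cells of a type and more RNA per cell cannot be told apart.

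Genes of macrophages and dendritic cells were lower in both KO tumors. Of 21 tested, 16 had negative log2 fold changes, the median was -1.01, and 10 had an unadjusted p under 0.05 with lower values in KO, against 12.3% of all genes tested. None was called by edgeR, 1 was called lower without WT tumor 4 (0.407% of all genes), 4 with genes of all types in the fit (3.46%), and DESeq2 called 7 of them lower (1.80%). Their summed level was 872 to 1314 CPM in WT and 509 and 477 CPM in KO tumors. C1qa, C1qb and C1qc, the chains of complement C1q that tissue macrophages make, had log2 fold changes of -1.88, -1.90 and -2.09. C1qa measured 69.8, 111, 103 and 83.1 CPM in WT and 20.6 and 29.2 CPM in KO tumors (adjusted p = 0.0595). The class II genes H2-Aa, H2-Ab1 and Cd74, used to present antigen, had -1.17, -1.34 and -1.51. Not all markers went along: Itgam and Itgax, integrins of myeloid cells, had -0.15 and -0.04, and Cd14 had 0.61 (unadjusted p = 0.0271). Lymphocyte genes were low, with a summed level of 17.5 to 41.2 CPM in WT and 20.5 and 24.6 CPM in KO tumors. Of 14 tested, 4 had an unadjusted p under 0.05 with higher values in KO (13.9% of all genes) and 3 with lower values (12.3%). Cd4, which mouse macrophages and T cells may carry, had 7.47 to 23.6 CPM in WT and 2.80 and 5.49 CPM in KO tumors (log2 fold change -2.06, adjusted p = 0.0925). Cd3d lay in the other direction, with 0.652 to 1.45 CPM in WT and 3.24 and 5.49 CPM in KO tumors (log2 fold change 2.29, adjusted p = 0.0750).

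**Figure D3:**
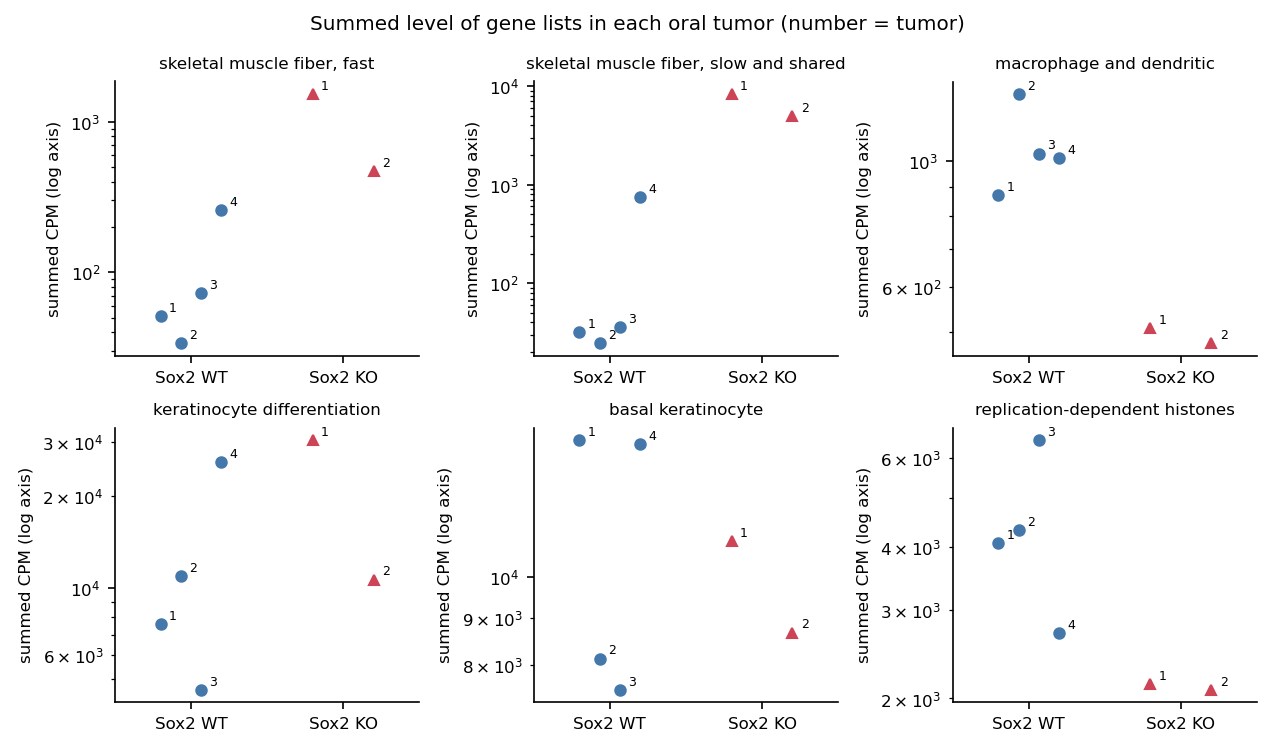
Summed CPM of 6 gene lists in each oral tumor on log axes, with circles for Sox2 WT and triangles for Sox2 KO tumors and the tumor number beside each point. Muscle lists lie higher and the macrophage and dendritic cell list and the histone list lower in both KO tumors than in any WT tumor, while the 2 keratinocyte lists overlap.

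Genes of other cell types gave no call by edgeR apart from Crisp1. DESeq2 called members of several of these lists, at most 3 beside Crisp1 in the salivary list and 4 in the fibroblast list. Of the fibroblast genes 2 were called higher (4.62% of all genes), among them Pi16, and 2 lower (1.80%), Dcn and Lum. Fibroblast genes had a median log2 fold change of 0.30. The small proteoglycan genes Dcn and Lum, which coat collagen fibrils, departed from it: Dcn had 975 to 1174 CPM in WT and 182 and 53.7 CPM in KO tumors (log2 fold change -3.22, adjusted p = 0.0595), and Lum had -1.90. Pi16 departed in the other direction, with 1.75 to 5.10 CPM in WT and 18.4 and 11.6 CPM in KO tumors (log2 fold change 2.30, adjusted p = 0.0705). The collagen genes Col1a1, Col1a2 and Col3a1 had 0.36, 0.03 and -0.11. Medians were 0.07 for endothelial, 0.04 for Schwann and neuronal, 0.28 for simple epithelium, 0.36 for osteoblast, 0.53 for adipocyte, 0.28 for neutrophil and mast cell, -0.30 for lymphocyte, -0.72 for chondrocyte and -0.75 for hair follicle genes, 0.92 for 5 tested tooth genes, 1.48 for 9 tested salivary gland genes and 1.73 for 3 tested erythroid genes. The last 3 lists held 9 tooth, 20 salivary gland and 7 erythroid genes. The 2 KO tumors alone can meet the count filter, so genes low in WT could be tested because they were high in KO. Leaving out a KO tumor turned some of the medians of cell type lists: without KO tumor 1 they were -0.89 for osteoblast, -0.48 for neutrophil and mast cell and -0.08 for simple epithelium genes, and without KO tumor 2 -0.15 for tooth and -0.11 for fibroblast genes. The salivary genes did not lie alike in the 2 KO tumors, as Klk1, a salivary kallikrein, had 57.8 CPM in KO tumor 1 and 0.113 CPM in KO tumor 2, while Egf, a growth factor of saliva, had 12.2 and 10.4 CPM, against 2.55 to 4.51 CPM in WT. Without KO tumor 1 the median of the salivary gland genes was -0.93, on the other side of 0. Of 23 interferon response genes 21 had positive log2 fold changes, with a median of 0.65, but no gene of this list reached an unadjusted p under 0.05, and WT tumor 4 had the highest sum of the 6 tumors, 1480 CPM. Transcription factors of the epithelial-mesenchymal transition had a median of -0.03, with Snai2 at -1.52 (adjusted p = 0.0669) and Zeb1 at 0.93 (adjusted p = 0.104).

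Genes of energy metabolism and protein turnover had moderately lower values in the KO tumors, without any call in the edgeR fit that gave the 27 DEGs. For the nuclear genes of respiratory complex I, the proton pump that takes electrons from NADH, 34 of 36 log2 fold changes were negative, with a median of -0.70, and 24 had an unadjusted p under 0.05 with lower values, against 12.3% of all genes tested. Medians were -0.66 for complexes II to IV (24 of 24 negative), -0.61 for ATP synthase (15 of 17), -0.58 for the tricarboxylic acid cycle (13 of 14), -0.79 for cytosolic ribosomal proteins (48 of 51), -0.47 for mitochondrial ribosomal proteins (27 of 30) and -0.64 for the proteasome (31 of 31). Ndufs8, a core subunit of complex I, measured 47.3, 55.7, 59.8 and 51.9 CPM in WT and 22.4 and 24.9 CPM in KO tumors (log2 fold change -1.18, adjusted p = 0.0595). Cox5b, of cytochrome c oxidase, had -1.61 (adjusted p = 0.0595), Sucla2, of succinyl-CoA synthetase, -0.87 (adjusted p = 0.0683), and Psmc5, an ATPase of the proteasome, -0.99 (adjusted p = 0.0644). DESeq2 called 2 genes of complex I, 1 of complexes II to IV, 3 of the cytosolic ribosome and 1 of the mitochondrial ribosome lower (1.80% of all genes), and the ribosomal gene Rpl3 higher. With genes of all types in the fit, 14 genes of complex I, 15 of the cytosolic ribosome and 7 of the proteasome were called lower (3.46% of all genes). With at least 10 counts in every tumor, edgeR called 1 of complex I, 1 of complexes II to IV and 3 of the cytosolic ribosome lower (58 of 13697 genes). In 1 fit of all 13 tumors it called 6, 2 and 9 of these lists lower (480 of 17462 genes), and 1 gene of the cytosolic ribosome higher. The mRNAs made inside mitochondria did not share this direction: 12 of 13 had positive log2 fold changes, the median was 0.43, and mt-Co1, a catalytic subunit of cytochrome c oxidase, had 12934 to 16521 CPM in WT and 20891 and 34788 CPM in KO tumors. Glycolysis genes had a median of 0.19, with 15 of 20 positive, and of -0.06 without KO tumor 2.

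Lists of growth and cell division had medians below 0. Of 25 ribosome biogenesis genes that respond to MYC, 17 had negative log2 fold changes and the median was -0.26, or -0.06 without KO tumor 1. For 15 enzymes of purine nucleotide synthesis the median was -0.45, with Paics, of the middle steps, at -0.91 (adjusted p = 0.102) and Pfas, of an earlier step, at 0.41 (adjusted p = 0.157). For 37 proliferation genes the median was -0.40, or -0.10 without KO tumor 1 and -0.73 without KO tumor 2, 3 had an unadjusted p under 0.05 with lower values (12.3% of all genes), and Mcm4, a subunit of the replicative helicase, had -0.73 (adjusted p = 0.161). The replication-dependent histones, whose mRNAs lack a poly(A) tail and are made in S phase, had a median of -1.05, and 30 of 54 had an unadjusted p under 0.05 with lower values, against 12.3% of all genes. DESeq2 called 13 of them lower (1.80% of all genes) and Hist1h2bq higher (4.62%). By edgeR 12 were called lower with genes of all types in the fit (3.46%) and 24 in 1 fit of all 13 tumors (480 of 17462 genes). Hist2h2ac, which shares 52.7% of its 31-base sequences with other genes, measured 57.1, 59.0, 60.9 and 41.8 CPM in WT and 20.4 and 22.6 CPM in KO tumors (log2 fold change -1.35, adjusted p = 0.0595). Histone genes are near copies of each other, so that values of single members are uncertain.

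**Figure D4:**
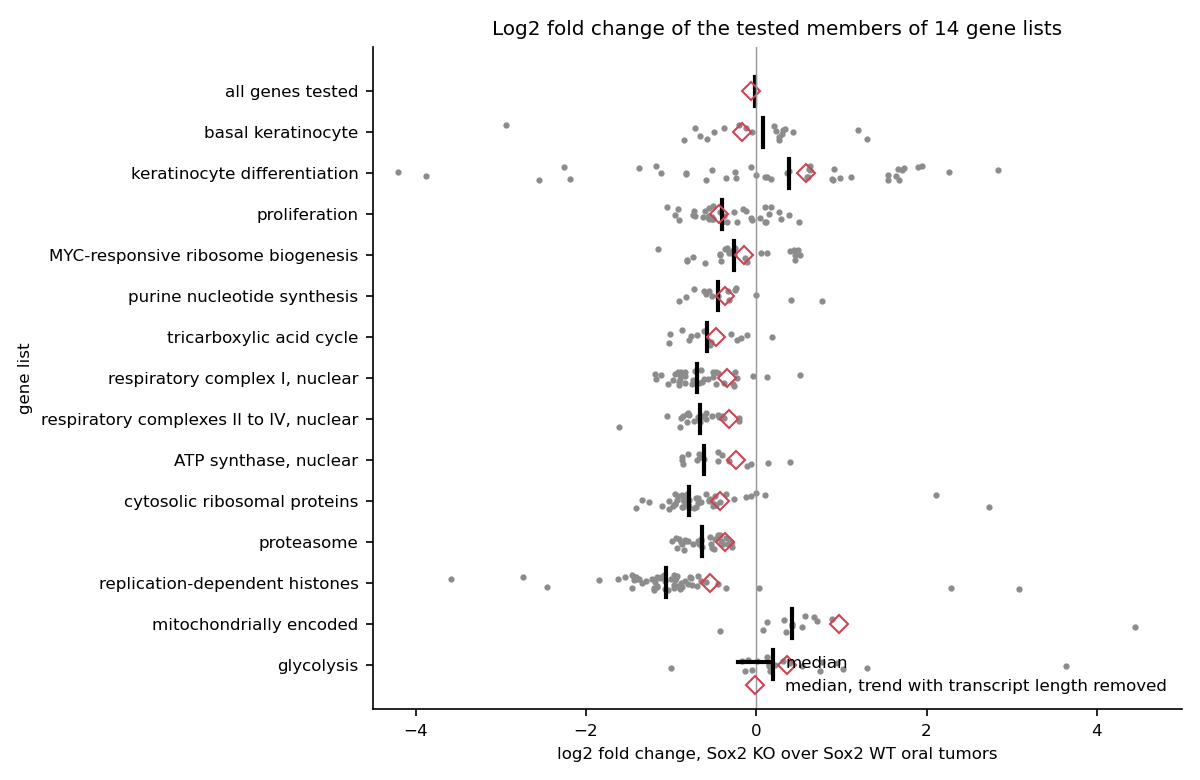
Log2 fold change of Sox2 KO over Sox2 WT oral tumors for the tested members of 14 gene lists, 1 grey point per gene, with a black bar at the median of each list and a red diamond at the median after a trend with transcript length was removed. Medians of the lists of the tricarboxylic acid cycle, nuclear respiratory complexes and ATP synthase, cytosolic ribosome, proteasome and histones lie between -1.05 and -0.58 before and between -0.54 and -0.24 after the trend was removed, and the top line gives the medians of all genes tested.

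Differences of this kind went along with transcript length. When the genes tested were ordered by their longest annotated transcript, the median log2 fold change climbed from -0.46 in the shortest decile (81 to 1378 bases) to 0.44 in the longest decile (6853 to 123179 bases). Relative to the WT mean, the shortest decile had a median of -0.34 in KO tumor 1 and -0.56 in KO tumor 2, and the longest 0.38 and 0.49, while the WT tumors stayed between -0.13 and 0.08 in these deciles. Base composition went along too: the median log2 fold change was 0.40 in the decile of lowest GC content and -0.15 in the highest, at 0.27 and 0.00 in KO tumor 1 and at 0.49 and -0.29 in KO tumor 2. Of the 19 DEGs that rose, 11 lie in the longest decile, and none of the 8 that fell does. After the trend was removed, an analysis added once the data had been seen, 5 genes were called higher (Ada, Ankrd23, Crisp1, Slc38a6 and mt-Nd3) and 3 lower (Gm13212, Sox2 and Tpm3-rs7). The median moved from -0.70 to -0.34 for complex I, from -0.79 to -0.43 for cytosolic ribosomal proteins and from -1.05 to -0.54 for histones, but from -1.01 only to -0.94 for macrophage and dendritic cell genes, from -0.40 to -0.43 for proliferation genes and from 3.75 to 3.80 for slow and shared muscle genes. For the chemosensory receptors, whose median transcript has 4869 bases, it moved from 1.77 to 1.53. None of the 7 receptor DEGs stayed called, with log2 fold changes of 0.95 to 2.31 after removal of the trend (adjusted p = 0.0638 to 0.109, edgeR). Syne1 moved from 2.17 to 0.93 and Htt from 1.29 to 0.54, and neither stayed called. The share of Rn7s1 and Rn7s2 and the protein-coding share also parted the genotypes. Both shares lay further from WT in KO tumor 1, while the shortest and longest deciles lay further apart in KO tumor 2. The part of these shares in the length trend was not tested.

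**Figure D5:**
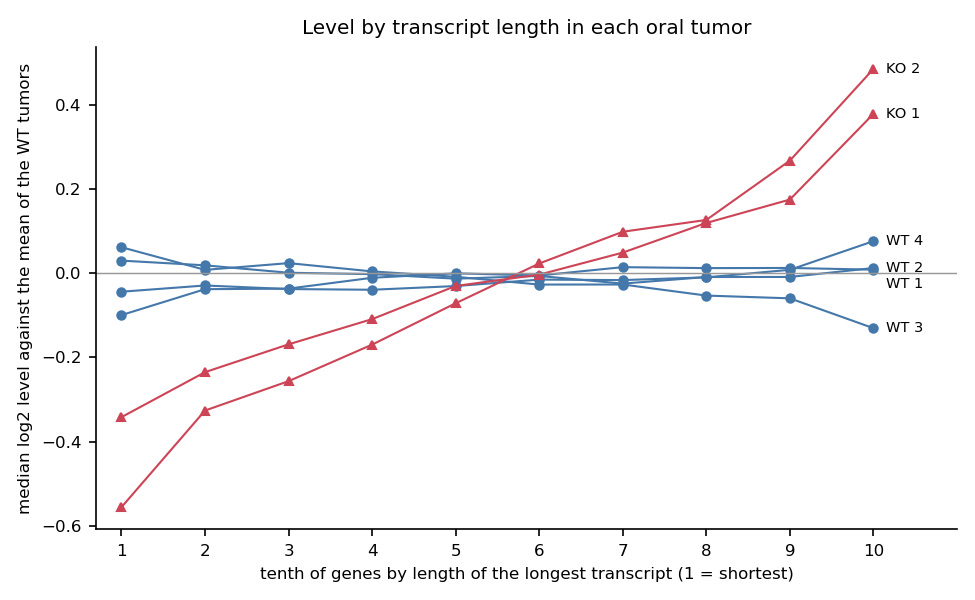
Median log2 level against the mean of the 4 Sox2 WT tumors, for 10 equal groups of the tested genes by the length of the longest transcript, with 1 line per oral tumor, circles for WT and triangles for KO. Both KO lines climb from -0.34 and -0.56 in the shortest decile to 0.38 and 0.49 in the longest, and the WT lines stay close to 0.

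The 27 DEGs were then looked up in the 7 pancreatic tumors, 4 Sox2 WT and 3 Sox2 KO, which share no sample with the oral comparison. In a fit of all 13 tumors, 3 of the 27 passed the thresholds in the pancreas: Sox2 with a log2 fold change of -11.41 (adjusted p = 6.06e-07), Tpm3-rs7 with -8.28 (adjusted p = 3.2e-08) and Crisp1 with -7.17 (adjusted p = 0.0403). The other 24 did not. The median absolute log2 fold change of the 27 was 2.37 in the fit of the oral tumors and 0.28 for the pancreas in the fit of all 13. The 27 were chosen by a large oral change, so a larger oral median was set by that choice. Tpm3-rs7 was at 368 to 386 CPM in pancreatic WT and 1.09 to 1.40 CPM in pancreatic KO tumors, so it was low in the KO tumors of both tissues. Crisp1 went the other way there, with 6 to 24 counts in the WT and 0 in each of the 3 KO tumors. Ada was at 4.92 to 11.7 CPM in pancreatic WT and 4.28 to 6.96 CPM in pancreatic KO tumors, and thus overlapped.

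Tested directly, the effect of genotype differed between oral and pancreatic tumors for 791 of 17462 genes. The oral effect lay above the pancreatic effect for 439 (2.51%) and below it for 352 (2.02%). Of the 27 oral DEGs, 25 passed this interaction test, all but Sox2 (adjusted p = 0.332) and Ahcy (adjusted p = 0.0821), but the oral side of each difference is the one by which these genes were chosen. The 5 genes with the smallest interaction p were mt-Nd3, Crisp1, Krt4, Asdurf and Slc38a6. Krt4 is no DEG of the oral tumors, and its effect differed by 5.68 on the log2 scale (adjusted p = 0.00163), as it measured 1560 to 3415 CPM in pancreatic WT and 202 to 249 CPM in pancreatic KO tumors, the opposite order to the oral tumors.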

How the data were processed

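RNA of 13 tumors was sequenced by the study on libraries that keep the strand, after depletion of ribosomal RNA. Per the labels, reads were trimmed with Trim Galore 0.6.10, checked with FastQC 0.12.1 and quantified with kallisto 0.50.0 on GRCm38, and the study's methods name tximport for the sums per gene. The authors deposited these estimated counts per gene without normalization, and 26.0% of the oral values are not whole. The table holds 56085 genes, of which 55332 have values. Types and symbols came from GENCODE M21, in which 55141 genes with values were found, 21897 of them protein-coding. The study used a later GENCODE release.

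Estimated counts were rounded, and protein-coding genes that reached 10 counts in 2 or more oral tumors were tested in R 4.3.3 with edgeR 4.0.16 (TMM factors of protein-coding genes, robust quasi-likelihood test, Benjamini-Hochberg adjustment over all genes tested). DEGs had an adjusted p below 0.05 and a log2 fold change beyond 1 in either direction. Standard errors were derived from the F statistic. DESeq2 1.42.0 with apeglm 1.24.0 was an alternative, and a fit of all 13 tumors gave the test of interaction between tissue and genotype. Other alternatives were size factors of DESeq2, genes of all types, other count filters, tumor number as a block, scaling without muscle genes, thinned counts, removal of a trend with transcript length, and leaving out each tumor. Counting intervals and limits from depth cover counting error only, and depth per tumor is given with the results. The scripts were tested on simulated data.

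Named genes are all DEGs, 6 fixed genes (Sox2, Nutm1, Myc, Trp63, Krt5 and Krt14; a further fixed gene is not reported here), in each list the gene with the smallest unadjusted p under 0.05 in each direction, 3 genes on each side of the threshold and the 5 genes with the smallest interaction p. Further list members are named as examples after their values were seen. Members and lists were chosen with earlier results of these data known, and the lists were described by counts and medians with no set test. A gene's 31-base sequences were compared with all GENCODE M21 transcripts. Primers came from the study's supplement. The hair follicle gene Krt85 was not found in the table.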

Additional observations from a re-analysis of the deposited data

Results flagged for a closer look

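A tumor far from the others of its genotype, by Dixon's test on the 4 WT tumors, was seen for 6 named genes. Chance alone gives about 1 such flag in 20 groups. Crisp1 had 0.0272 CPM in WT tumor 1, Pvalb 0.0852 CPM in WT tumor 4, Tmem72 20.7 CPM and Mrpl2, a mitochondrial ribosomal protein gene, 58.9 CPM in WT tumor 3, Paics 287 CPM in WT tumor 3, and Tead1, a partner of YAP, 97.3 CPM in WT tumor 2. The value of Crisp1 is a single count.

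For gene lists, WT tumor 4 stood apart in both lists of muscle fibers, with medians of 2.20 (fast) and 2.72 (slow and shared) on the log2 scale against the mean of the WT tumors, in the list of muscle progenitors with 0.84, and in the list of Schwann and neuronal genes with 0.74. WT tumor 1 stood apart for endothelial genes with 0.58.

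The effect of genotype differed between oral and pancreatic tumors by the interaction test for 42 named genes. For the DEGs that rose in oral tumors, the oral effect exceeded the pancreatic effect, on the log2 scale, by 17.03 for Crisp1, which was at or near 0 in one genotype of each tissue, by 4.91 for mt-Nd3, 3.74 for Ankrd23, 3.37 for Ada, 2.69 for Serpinc1, 2.32 for Tmem72, 2.13 for Slc38a6, 2.02 for Syne1, 1.90 for D10Wsu102e, 1.42 for Htt, 1.40 for Apex2 and 1.37 for Mef2c. Among receptor genes the difference was 2.72 for Olfr839-ps1, 2.70 for Olfr1307, 2.69 for Olfr635, 2.65 for Vmn2r53, 2.48 for Olfr63, 2.33 for Vmn2r76, 2.18 for Vmn2r115 and 1.85 for Vmn2r120. DEGs that fell in oral tumors gave -5.92 for Asdurf, -5.28 for Gm13212, -2.13 for Ctss, -2.12 for Tpm3-rs7, -1.79 for Kpna2 and -1.41 for Snn.

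Of genes that were not DEGs of the oral tumors, the difference was 5.68 for Krt4, 4.31 for Mal, a myelin and epithelial membrane protein, 3.67 for Chrna1, 3.17 for Ryr1 and 2.26 for the ribosomal protein gene Rpl3, which shares 37.6% of its 31-base sequences with other genes. It was -4.08 for Dcn, -3.23 for Cd4, -2.04 for C1qa, -1.46 for Rpl23, -1.45 for Cox5b, -1.42 for Hist2h2ac, -1.27 for Brd3, -1.24 for Mrpl2, -1.14 for Rrs1, a ribosome assembly factor, -1.07 for Ndufs8 and -1.04 for Psmc5.

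Outside the protein-coding genes, loci that GENCODE types as TEC, predicted but not yet tested by experiment, took 5.42% of the counts in KO tumor 1 and 1.11% in KO tumor 2, against 0.363% to 0.691% in the WT tumors. Rn7s1 and Rn7s2 took 16.6% and 4.67%, against 2.14% to 2.49%. The exact permutation p of each share is 0.0667, the smallest this design allows.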

How the results depend on the processing

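Called genes, higher and lower, numbered 492 and 565 with genes of all types, 270 and 58 with at least 10 counts in every tumor, 756 and 294 with DESeq2, 1055 and 480 in 1 fit of all 13 tumors, and 5 and 3 without the length trend. DESeq2 size factors, no filter, scaling without muscle genes and thinned counts kept both counts within 1.5 times. Leaving out 1 tumor gave 0 to 205 higher and 0 to 65 lower: 3 and 3 without WT tumor 1, 0 and 1 without WT tumor 2 (1741 and 1462 at an unadjusted p under 0.05 in edgeR), 3 and 1 without WT tumor 3, 205 and 65 without WT tumor 4, 2 and 3 without KO tumor 1, and 3 and 0 without KO tumor 2 (1634 and 1491). With 1 KO tumor left, its spread is taken from the WT tumors. The cause was not tested.

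Whether tumors with the same number belong together is not known from their titles. Deviations from the group means correlated at -0.113 for tumors 1 and -0.10 for tumors 2. The deviations of the 2 KO tumors from their mean mirror each other, so these values cannot decide on a pairing. With the number as a replicate block, 19 genes were higher and 4 lower, 4 of them shared with the unblocked DEGs, the calls included 8 genes of slow or shared and 4 of fast muscle fibers (Ttn, Neb, Acta1, Ryr1, Myh1 and others), and 222 interactions were called.

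Genes whose effect differed between tissues numbered 1417 with DESeq2 and 139 to 1455 with 1 tumor left out, 139 without KO tumor 1, 489 without WT tumor 2 and 1455 without WT tumor 4. The protein-coding share was lower by 4.80 points (-4.80) without KO tumor 1 and 29.8 (-29.8) without KO tumor 2. Sox2 ranged from -11.97 to -8.29 with 1 tumor left out and missed the threshold without WT tumor 2, WT tumor 3 or either KO tumor. The sign turned for D10Wsu102e (-0.63) without the length trend. Without KO tumor 1 or KO tumor 2, in this order, values were 0.49 and -0.11 for Nutm1, 0.19 and -0.70 for Trp63, and -0.51 and 0.76 for Krt14. Depth limits low genes in KO tumor 1, with 6982551 protein-coding counts.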
